A study of Mus musculus with 8 samples.

Results

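Connexins are the subunits of gap junctions, and pannexin 1 forms large-pore channels in the cell membrane. The 6 genes Gja1, Gjb6, Gjb2, Gjc3, Gjd2 and Panx1, which encode the connexins Cx43, Cx30, Cx26, Cx29 and Cx36 and pannexin 1, were taken by name, and all 6 were found among the 26711 features of the gene table. They were measured by single-nucleus RNA-seq of mouse primary visual cortex (V1) at postnatal day 21, in 102330 nuclei that the authors assigned to 20 cell types. All animals carried 2 floxed alleles of the glucocorticoid receptor (GR) gene Nr3c1 (GR fl/fl) and received at birth an AAV2/5 with the astrocyte promoter GfaABC1D and EGFP-CAAX, carrying either inactive ΔCre (GR-Con) or Cre (GR-KO). They were raised under normal light (NR) or in darkness until collection (DR). Each of the 4 groups, GR-Con or GR-KO under NR or DR, had 2 libraries, 1 from a male and 1 from a female. The comparisons ask whether GR loss in astrocytes, or darkness, moved the connexins and pannexin in any cell type. The floxed alleles and a vector were thus shared by all animals, the methods give 2 mice per group, and GR loss was limited to the cells in which the GfaABC1D vector was active.

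Gap junctions join the cytoplasm of neighbouring cells. In the cortex, Cx43 and Cx30 couple astrocytes into networks that share ions, glucose and glutamate, and Cx30 rises as astrocytes mature. Cx26 is best known from the leptomeninges and the inner ear, Cx29 from myelinating glia, and Cx36 from the electrical synapses between inhibitory interneurons. Pannexin 1 opens as a single-membrane channel and releases ATP.

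Gjb6 and Gjb2 are neighbours on the minus strand of mouse chromosome 14 (GRCm38), Gjb6 at chr14:57123303-57133611 and Gjb2 at chr14:57098600-57104702. They lie 18600 bases apart with 1 annotated gene, Gm4491, between them. Gja1 lies alone at chr10:56377330-56402513 on the plus strand. The other members are Gjc3 at chr5:137953461-137963098, Gjd2 at chr2:114009601-114013619 and Panx1 at chr9:15002128-15045478, all on the minus strand. Gjd2 overlaps the antisense gene A530058N18Rik, and no annotated gene overlaps the other 5 members. The 250 bases upstream of the start sites of Gjb6, Gjb2 and Gja1 are shown because Gjb6 fell in GR-KO astrocytes while Gja1 did not pass the test, and because the neighbour Gjb2 stood highest in another cell type. They are taken from RefSeq (GRCm38.p6), in which all 6 members matched an entry, and are printed on the gene's own strand with CG dinucleotides in capitals.
Gjb6, chr14:57133612-57133861, minus strand: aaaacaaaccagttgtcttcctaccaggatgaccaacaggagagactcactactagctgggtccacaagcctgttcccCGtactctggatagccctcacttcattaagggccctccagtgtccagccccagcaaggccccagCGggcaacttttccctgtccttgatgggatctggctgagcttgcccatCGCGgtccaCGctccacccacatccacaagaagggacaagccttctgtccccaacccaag
Gjb2, chr14:57104703-57104952, minus strand: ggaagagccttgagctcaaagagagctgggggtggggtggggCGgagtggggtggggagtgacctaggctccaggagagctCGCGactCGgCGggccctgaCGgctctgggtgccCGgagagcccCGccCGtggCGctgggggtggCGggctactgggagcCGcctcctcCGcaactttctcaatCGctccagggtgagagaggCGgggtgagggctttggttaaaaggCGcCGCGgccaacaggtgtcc
Gja1, chr10:56377050-56377299, plus strand: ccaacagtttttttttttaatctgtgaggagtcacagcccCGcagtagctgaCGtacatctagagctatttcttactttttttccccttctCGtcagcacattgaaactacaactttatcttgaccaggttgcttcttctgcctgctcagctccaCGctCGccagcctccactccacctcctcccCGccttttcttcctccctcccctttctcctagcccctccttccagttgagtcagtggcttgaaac
The window of Gjb2 held 18 CG dinucleotides and 69.2% G and C. Those of Gjb6 and Gja1 held 5 and 6 CG dinucleotides, near the median of 6 over 32536 such windows of the genome. On either strand, none of the 3 windows held the glucocorticoid receptor half-site AGAACA (found in 16.0% of all windows), its palindrome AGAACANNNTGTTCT (0.0092%), in which the half-site recurs, or the TATA box TATAAA (12.3%). The nuclear factor I half-site TTGGC (41.6%) was found once, in the window of Gjb2, 14 bases before the start site and on the opposite strand. A match of letters is a description of the window only.

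The 8 libraries held 9517 to 15161 nuclei and 168632129 to 288774016 UMIs (unique molecular identifiers, 1 per captured transcript), with a median of 14861 to 29223 UMIs per nucleus. The labelled cell types matched their markers: 41 of 42 marker genes were highest in their own class. Cre had no UMI in the astrocytes of any GR-Con library and 43 to 86 UMIs in those of the GR-KO libraries. Nr3c1 was not lower in GR-KO astrocytes: it stood at 207 to 263 CPM (the UMIs of a gene scaled to a fixed total for each cell type and library) in the 4 GR-Con and at 268 to 284 CPM in the 4 GR-KO libraries, without overlap. The counts are of 3′ ends, and how they lie to the floxed part of the gene is not given in the sources used here, so the Nr3c1 level does not check the labels. In all, 1220 cell barcodes occurred in more than 1 library. A cell type entered a comparison when each library of it had at least 10 nuclei, which 15 of the 20 types met in all 8 libraries. Vascular leptomeningeal cells (VLMC) did not, since the DR GR-Con female library held 3 of their nuclei.

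Gja1 was an astrocyte gene with a second home in VLMC and endothelial cells. Astrocytes held 64.2% of its 14352 UMIs, at 145 ± 12.4 CPM (SD, n = 8 libraries), with the lowest library at 126, the median at 146 and the highest at 166 CPM. VLMC followed at 107 ± 40.9 CPM (SD, n = 7), with 63.7 CPM in the lowest and 167 in the highest library, and endothelial cells at 41.4 ± 11.3 CPM (SD, n = 7). Of astrocyte nuclei, 53.6% had a Gja1 UMI, of VLMC 42.5% and of endothelial cells 22.3%. In 15 other types, neurons, oligodendrocytes, OPC and microglia among them, this share lay between 4.28% and 5.44%, although their median depth ran from 2448 to 29199 UMIs per nucleus. These values, and the 1.69 to 15.8 CPM behind them, are therefore not read as expression. Free RNA of other cells can give like shares in all types, and its part was not tested. The mural cells of vessels (SMC-Peri) were not among these 15 types. A Gja1 UMI was found in 7.22% of their 180 nuclei, from 15 UMIs in all.

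Gjb6 followed the same pattern, with lower shares in the other types. Astrocytes held 85.9% of its 13896 UMIs, at 192 ± 69.1 CPM (SD, n = 8), and VLMC had 183 ± 61.1 CPM (SD, n = 7), but the order of both types changed with the group. In NR GR-Con the mean was 272 CPM in astrocytes and 148 CPM in VLMC, and in NR GR-KO 123 and 131 CPM. In DR GR-Con astrocytes had 231 CPM over 2 libraries and VLMC 217 CPM in 1, the male. In DR GR-KO the means were 141 and 253 CPM. Marker shares in VLMC moved between these groups too. In GR-Con the neuronal markers took 0.977% and 0.766% of VLMC UMIs in NR and 0.255% in the DR male library. The VLMC markers took 0.0635% and 0.0906% against 0.142%. GR-KO values are given under rearing below, and the part of these shifts was not tested. Endothelial cells had 11.2 ± 9.95 CPM (SD, n = 7), with both DR GR-KO libraries (n = 2) at 0 and the highest library at 27.4 CPM. Over all groups the share of nuclei with a Gjb6 UMI was 60.9% in astrocytes and 61.9% in VLMC, and 0.949% to 2.89% in the 15 types outside astrocytes and vessels. The astrocyte libraries ran from 115 to 297 CPM, and the genotype comparison below gives each of them.

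Gjb2 belonged to VLMC. Its level there was 20.96 ± 13.5 CPM (SD, n = 7) and it was 1.60 ± 0.439 CPM (SD, n = 8) in astrocytes, the next type. The gene was scarce, with 342 UMIs in all, 56 of them in VLMC and 104 in the far more numerous astrocytes. VLMC nuclei had a Gjb2 UMI in 12.5% of cases and astrocyte nuclei in 1.096%, against at most 0.258% in the 17 other types with at least 100 nuclei. VLMC are fibroblast-like cells of the meninges, and all 5 of their markers were higher there than in astrocytes. Slc6a13 had 528 ± 228 CPM in VLMC (SD, n = 7) and 0.0914 ± 0.0597 CPM in astrocytes (SD, n = 8), and Col1a1, the closest of the 5, 71.0 ± 28.8 and 6.13 ± 1.44 CPM. The astrocyte water channel Aqp4 reached 14.0 ± 9.25 CPM in VLMC against 148 ± 39.0 CPM in astrocytes (SD, n = 7 and 8).

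Gjc3 marked the oligodendrocyte lineage. Oligodendrocytes held 87.5% of its 51759 UMIs, at 852 ± 60.2 CPM (SD, n = 8), and oligodendrocyte progenitor cells (OPC) stood at 233 ± 31.2 CPM (SD, n = 8). Every oligodendrocyte library lay between 762 and 939 CPM and every OPC library between 201 and 292 CPM, so the types did not overlap. A Gjc3 UMI was found in 94.2% of oligodendrocyte nuclei and 64.7% of OPC nuclei, and in 1.38% to 2.64% of the nuclei of the 17 other types. Gjb1 (Cx32), another connexin of myelinating cells, also stood highest in oligodendrocytes, with 16.4 ± 3.22 CPM there and 1.91 ± 0.509 CPM in OPC (SD, n = 8 each). These are counts of 3′ ends, and levels are compared between cell types of 1 gene, not between genes.

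Gjd2 was an interneuron gene. Parvalbumin (Pvalb) interneurons had 6.28 ± 0.764 CPM, Vip interneurons 5.16 ± 1.76 CPM, Sst interneurons 3.30 ± 0.908 CPM and Lamp5 interneurons 2.74 ± 1.37 CPM (SD, n = 8 each), against 0.169 ± 0.0297 CPM over the 8 excitatory types together. Pvalb nuclei held 40.2% of all 1224 Gjd2 UMIs. A Gjd2 UMI was seen in 11.5% of Pvalb, 7.64% of Vip, 5.68% of Sst and 4.82% of Lamp5 nuclei. Among excitatory types, L2/3 stood apart at 0.780% of nuclei and 0.317 ± 0.0940 CPM (SD, n = 8), while L4 had 0.0892 ± 0.0381 CPM.

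Panx1 had no single home. It was lowest in astrocytes, at 1.061 ± 0.433 CPM (SD, n = 8) and 0.706% of nuclei, and its 8 astrocyte libraries held 70 UMIs together. OPC had the highest level, at 15.6 ± 3.11 CPM, then Sst interneurons at 12.4 ± 2.44, Vip interneurons at 10.6 ± 2.46, oligodendrocytes at 9.81 ± 2.27 and Lamp5 interneurons at 9.28 ± 1.25 CPM (SD, n = 8 each). Per nucleus the order was different, since neurons hold more UMIs: 19.6% of Sst and 8.88% of OPC nuclei had a Panx1 UMI. Its relative Panx2 was neuronal, highest in Sst interneurons at 18.5 ± 3.33 CPM (SD, n = 8).

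**Figure D1:**
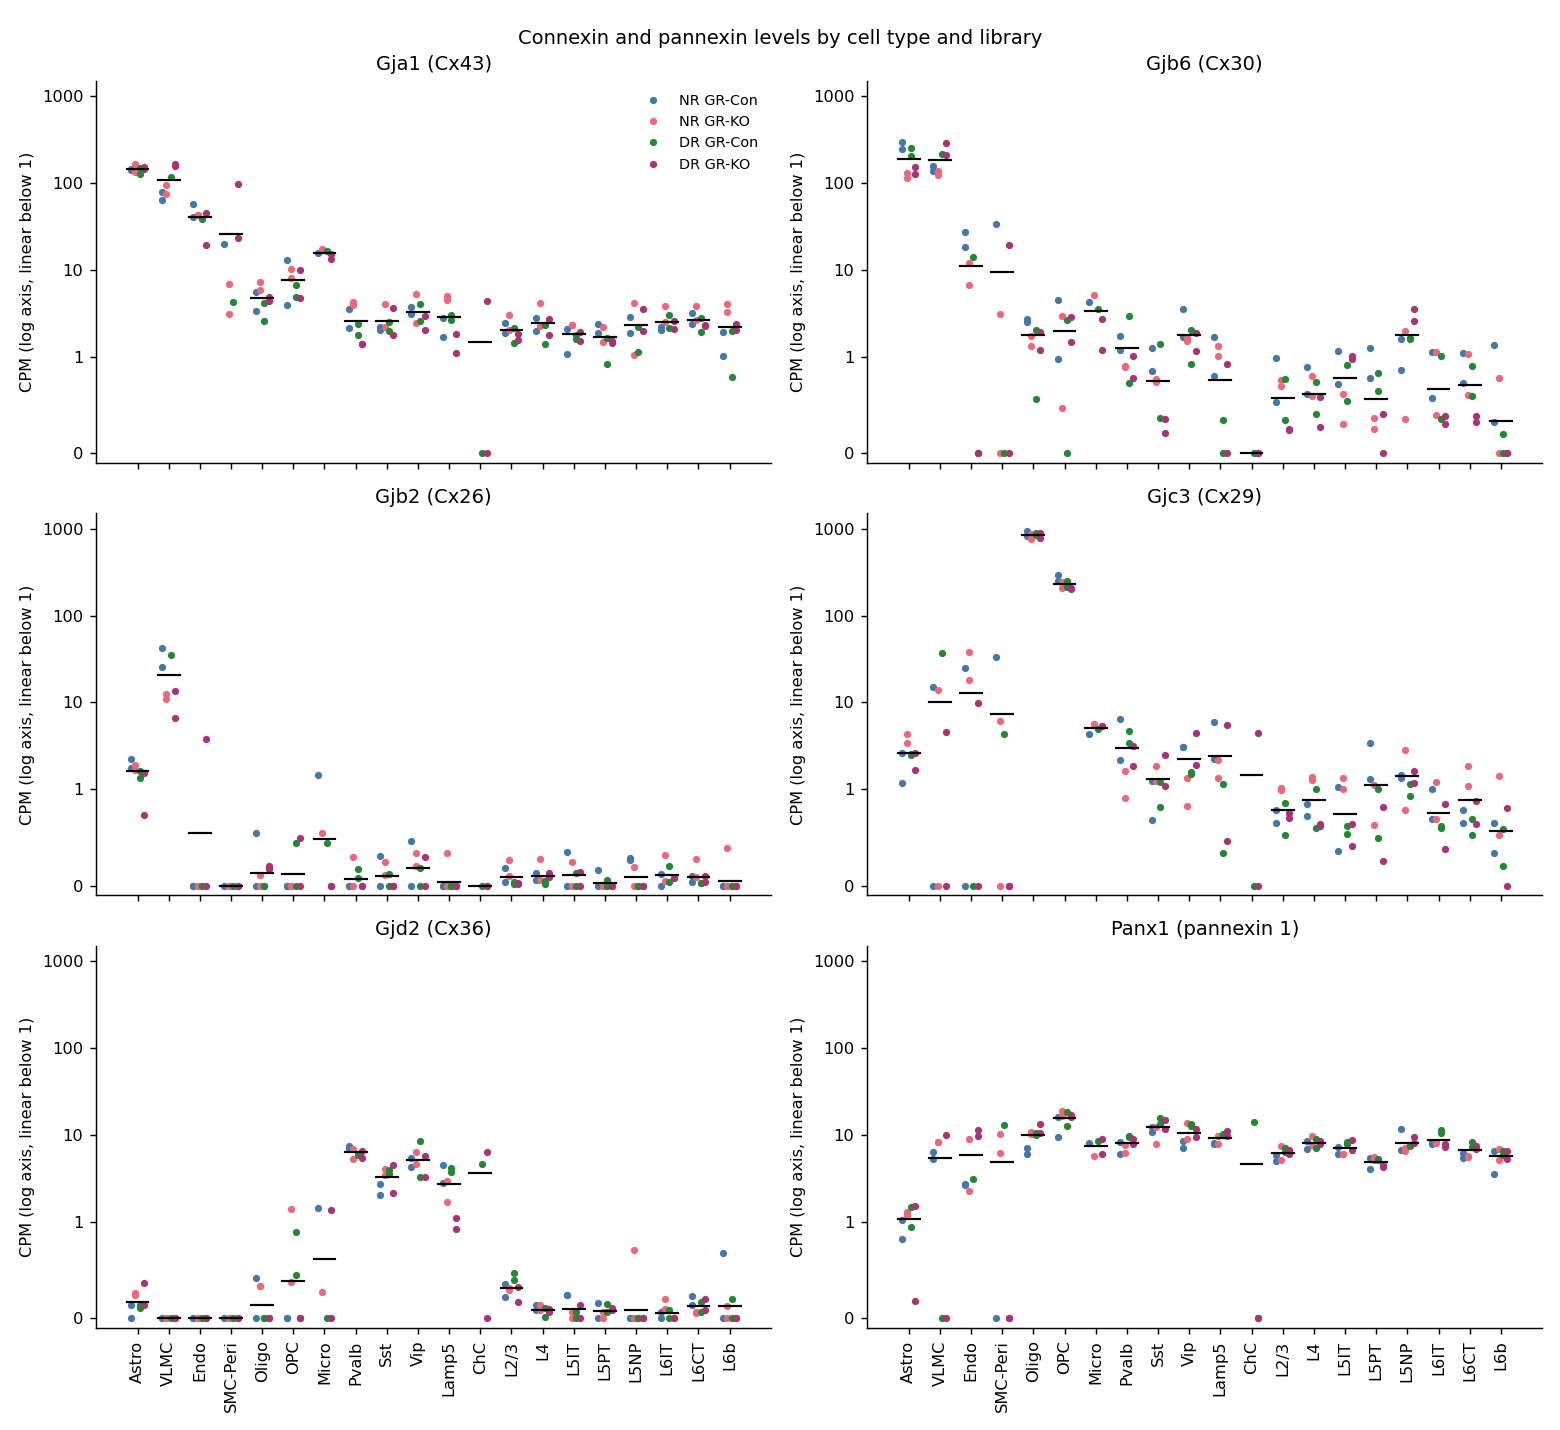
CPM of each member (log axis, linear below 1) by cell type. Points are libraries with at least 10 nuclei of the type, coloured by group, and bars are means. Gja1 and Gjb6 share astrocytes and VLMC, Gjb2 stands out in VLMC at 20.96 CPM, Gjc3 in oligodendrocytes at 852 CPM, Gjd2 in interneurons, and Panx1 is spread over all types but lowest in astrocytes at 1.061 CPM.

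The order of the 5 highest cell types of each member was tested between neighbours, within libraries, over the 15 types present in all 8 (exact sign-flip test, two-sided, adjusted over 24 pairs). The order, and so the pairs tested, came from the mean CPM of these same libraries. A pass therefore describes how alike the libraries were and adds no independent support for the order. In 8 pairs the neighbours differed, at an exact p = 0.00781 (the smallest 8 libraries allow) and an adjusted p = 0.0234, in the same direction in 8 of 8 libraries. Those were astrocytes over the next of these 15 types, which leave out VLMC, for Gja1, Gjb6 and Gjb2, oligodendrocytes over OPC and OPC over Pvalb for Gjc3, Lamp5 over OPC for Gjd2, and OPC over oligodendrocytes and oligodendrocytes over Vip for Gja1. The last 2 lie among the levels not read as expression above. The neighbours among the 4 interneuron types did not pass the test for Gjd2, the nearest being Vip over Sst at 0.50 ± 0.54 on the log2 scale (SD, n = 8, exact p = 0.0469, adjusted p = 0.125). No neighbours in the order of Panx1 passed, with OPC over Sst at 0.30 ± 0.42 on the log2 scale (SD, n = 8, exact permutation p = 0.0781, adjusted p = 0.17). When VLMC and endothelial cells were admitted with the 7 libraries that held enough of them, Gjb2 was higher in VLMC than in astrocytes in 7 of 7 libraries (exact p = 0.0156, adjusted p = 0.0469). Gja1 in astrocytes over VLMC did not pass, at 0.54 ± 0.50 on the log2 scale and in 5 of 7 libraries (SD, n = 7, exact p = 0.0625, adjusted p = 0.144). Nor did Gjb6, at -0.02 ± 0.71 and with astrocytes higher in 2 of 7 libraries (SD, n = 7, exact p = 0.906, adjusted p = 0.946). This is a mean over libraries of all 4 groups, whose differences ran in opposite directions as given above.

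**Figure D2:**
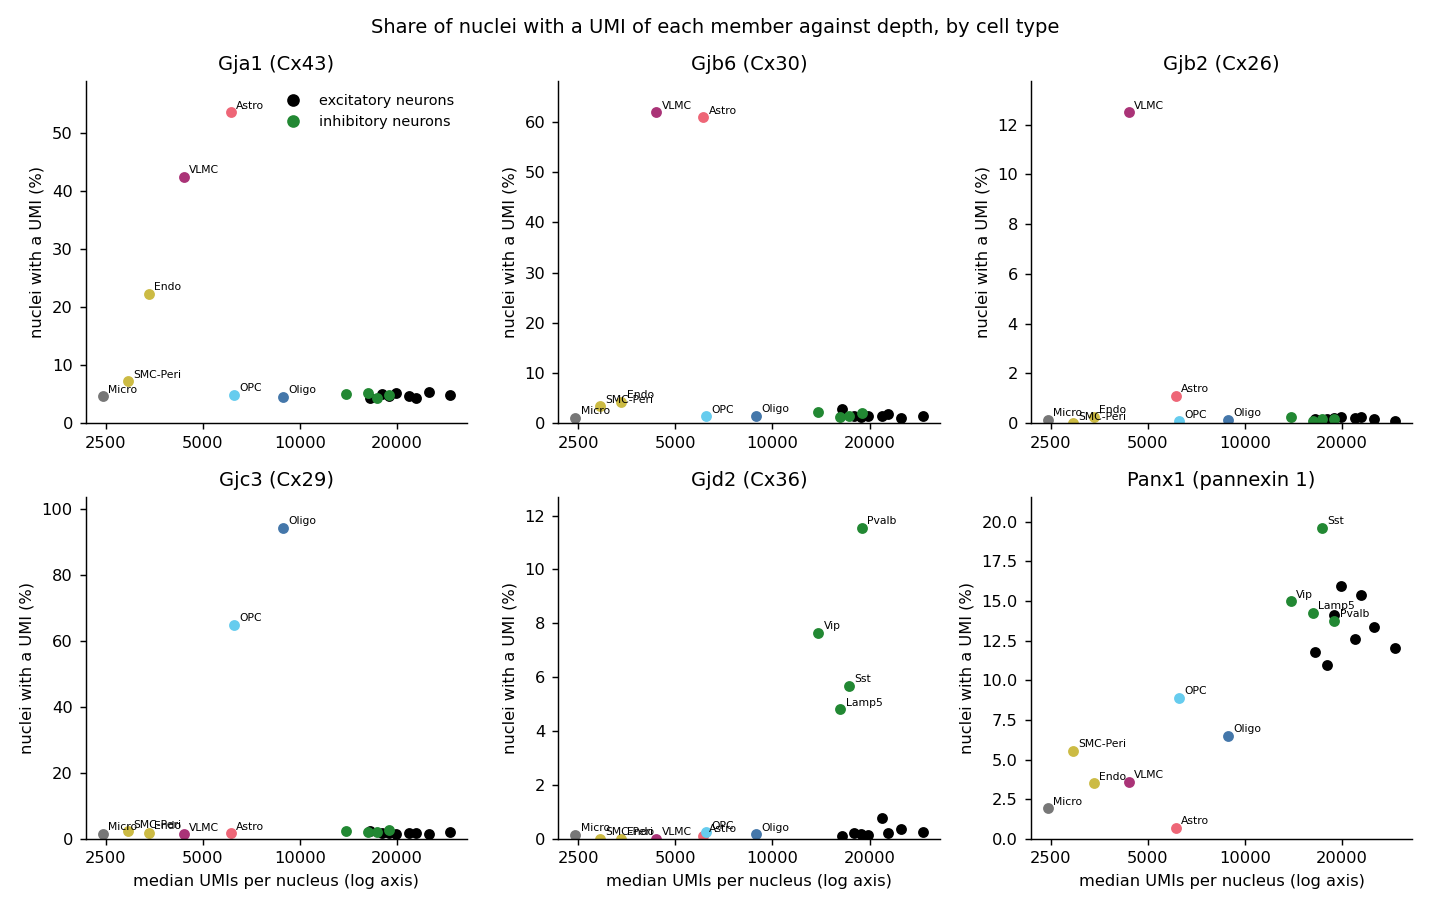
Percentage of nuclei with at least 1 UMI of each member against the median UMIs per nucleus (log axis). Each point is a cell type with at least 100 nuclei. For Gja1 the points outside astrocytes and vessel types run flat between 4.28% and 5.44% whatever the depth, and for Panx1 the neurons lie above all glia.

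Over the 15 types, the genes whose levels most resembled each member (Pearson r of log2 mean CPM among 11743 genes, with types as points that share their libraries) were Mt2, Oaf and Slc25a18 for Gja1 (r = 0.996, 0.994 and 0.993; Spearman rho 0.893, 0.761 and 0.779) and Mlc1, Phkg1 and Gfap for Gjb6 (r = 0.994, 0.992 and 0.992; Spearman rho 0.818, 0.807 and 0.729). For Gjc3 they were Gm10863, Fa2h and Plxnb3 (r = 0.998, 0.994 and 0.993; rho 0.893, 0.954 and 0.689). For Gjd2 they were Ankrd55, Dlx5 and Dlx6 (r = 0.974, 0.972 and 0.969, with rho of 0.704, 0.693 and 0.757), the last pair being transcription factors of cortical interneurons. Panx1 was nearest to Nsd2, 4931428F04Rik and Psmd9 at lower values (r = 0.923, 0.878 and 0.869, with rho of 0.754, 0.686 and 0.504). Gjb2 was nearest to Gm11627, Sctr and C030018K13Rik (r = 0.993, 0.991 and 0.990), but with rho of 0.850, 0.429 and 0.607. The 15 types leave out VLMC, where Gjb2 was highest, and set astrocytes at 1.60 CPM against types near 0. The VLMC levels of Gja1 and Gjb6, at 107 and 183 CPM, are left out too. Their r values thus rest on astrocytes against types of at most 7.73 and 2.00 CPM.

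With loss of GR, Gjb6 fell in astrocytes in NR and over both rearings, while Gja1, the other astrocyte connexin, did not pass the test. In NR GR-Con astrocytes Gjb6 stood at 297 CPM in the male and 246 CPM in the female library, and in NR GR-KO at 132 and 115 CPM. In the dark it stood at 206 and 255.96 CPM in GR-Con and at 128 and 155 CPM in GR-KO. Each of the 4 GR-KO libraries lay below each of the 4 GR-Con libraries, with no overlap under either rearing. Gja1 in the same astrocytes had 146 and 141 CPM in NR GR-Con, 166 and 133 in NR GR-KO, 149 and 126 in DR GR-Con, and 155 and 147 in DR GR-KO. Its genotype groups overlapped under both rearings.

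In NR, the edgeR likelihood-ratio test put the log2 fold change of Gjb6 in GR-KO astrocytes at -1.21 ± 0.16 (SE, 4 libraries, adjusted p = 1.68e-11), a level 0.434 times that of GR-Con. In DR it was -0.68 ± 0.21 (SE, 4 libraries) and did not pass, with an edgeR adjusted p = 0.138. Over both rearings together it was -0.95 ± 0.15 (SE, 8 libraries, edgeR adjusted p = 1.48e-07). The difference between the NR and the DR effect, -0.53 ± 0.27 on the log2 scale, did not pass the edgeR test (adjusted p = 0.996), so the fall was not shown to depend on rearing. The DR call turned on the setting: with sex as a term the edgeR adjusted p was 0.0204, with all 8 libraries in 1 fit 0.0314, without the DR GR-Con female library 0.0042, without the DR GR-Con male library 7.27e-11, and without either DR GR-KO library 1.00. Gja1 changed by -0.01 ± 0.15 in NR and 0.07 ± 0.12 over both rearings (SE, log2 scale), with 95% intervals from -0.31 to 0.29 and from -0.17 to 0.30.

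The ratio of both astrocyte connexins within a library does not depend on the depth or the scaling of that library. Log2 of Gjb6 over Gja1 UMIs was 1.02 and 0.80 in NR GR-Con, -0.33 and -0.21 in NR GR-KO, 0.47 and 1.02 in DR GR-Con, and -0.28 and 0.08 in DR GR-KO. Its mean was 0.83 ± 0.26 in GR-Con and -0.19 ± 0.18 in GR-KO (SD, n = 4 each), a difference of -1.02. Mean log2 CPM of Gjb6 differed by -0.92 and that of Gja1 by 0.09. These differences are descriptions of values already given, with no test.

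**Figure D3:**
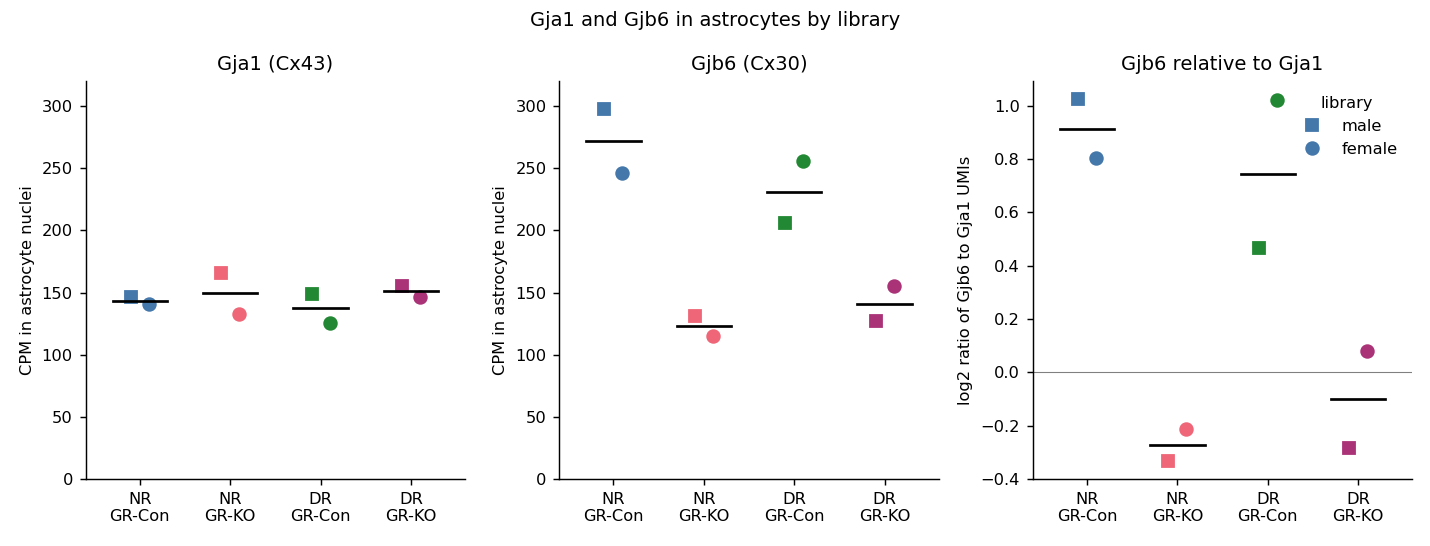
Gja1 and Gjb6 CPM in astrocytes, and the log2 ratio of their UMIs, by library. Squares are male and circles female libraries, and bars are group means. Gjb6 lies between 206 and 297 CPM in GR-Con and between 115 and 155 CPM in GR-KO, while Gja1 overlaps between the genotypes under each rearing.

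Fewer GR-KO astrocytes had a Gjb6 UMI. With nuclei thinned to 3000 UMIs, which left out the shallower ones (9084 of 9486 astrocytes kept, 924 to 1677 per library), 55.5% and 48.4% of NR GR-Con astrocytes and 30.4% and 26.5% of NR GR-KO astrocytes had a Gjb6 UMI. In the dark the thinned shares were 43.0% and 50.7% in GR-Con and 29.6% and 33.8% in GR-KO. Nuclei with a Gjb6 UMI held 1.42 to 1.60 of them on average in GR-Con and 1.26 to 1.37 in GR-KO after thinning. Unthinned, the shares were 58.4% to 78.8% in GR-Con and 42.0% to 61.8% in GR-KO. The thinned share for Gja1 was 30.1% to 33.7% in GR-Con and 31.2% to 36.7% in GR-KO. Astrocytes with Gja1 but no Gjb6 UMI made up 10.6% to 19.7% of nuclei in the GR-Con libraries and 23.0% to 27.6% in the GR-KO libraries, and those with Gjb6 alone 29.4% to 35.5% and 18.7% to 23.9%. Beside this, the median UMIs per astrocyte were 8662 and 12124 in NR GR-KO and 4889 to 7199 in the other libraries.

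The lower Gjb6 level was seen in GR-KO astrocytes with and without a vector transcript. Those with an EGFP or Cre UMI (102 to 140 nuclei per GR-KO library) had 97.9 to 132 CPM of Gjb6, and those without had 117 to 157 CPM. Within each GR-KO library those with a vector UMI were lower. They had 108 against 136 and 97.9 against 117 CPM in NR (male, female), and 102 against 131 and 132 against 157 CPM in DR. In GR-Con the corresponding values were 209 to 303 and 206 to 297 CPM. Within a GR-Con library they went both ways, at 303 against 297 and 244 against 246 CPM in NR (male, female), and 209 against 206 and 238 against 258 CPM in DR. The difference by vector UMI was not tested. A nucleus without a vector UMI may still have carried the vector, since EGFP stood at only 8.63 to 23.4 CPM. The 6 astrocyte markers together took 0.554% and 0.523% of astrocyte UMIs in NR GR-Con against 0.482% and 0.488% in NR GR-KO, lower without overlap, and 0.499% and 0.454% in DR GR-Con against 0.486% and 0.519% in DR GR-KO, none of them at 0 in any library. The 8 neuronal markers took 0.147% and 0.147% in NR GR-KO astrocytes against 0.0688% and 0.0870% in NR GR-Con, and 0.103% and 0.104% against 0.0806% and 0.120% in DR. The 4 OPC markers took 0.00775% to 0.0131% in the GR-KO and 0.00316% to 0.00551% in the GR-Con astrocyte libraries, without overlap. Of these 4, Vcan stood at 69.4 CPM in astrocytes and the other 3 at 0.906 to 2.63 CPM. Most of this sum thus comes from Vcan, which the paper reports as induced in astrocytes by GR loss. The 5 oligodendrocyte markers took 0.0193% and 0.0151% in NR GR-KO against 0.0132% and 0.0114% in NR GR-Con. The part of these marker shifts in the Gjb6 result was not tested.

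Across all cell types, 1 of the 56 pairs of member and cell type tested for genotype in NR was called, Gjb6 in astrocytes. Beside this, 0.804% of all 225061 pairs of gene and type were called. In NR 12 of the 56 had an edgeR unadjusted p under 0.05, 7 of them Gjc3. Of the 11 types in which Gjc3 was tested, it was higher in 6 and lower in 5. The share of all pairs at an unadjusted p under 0.05 is not set beside these counts. With sex as a term more pairs of members were called in NR, as given in the last section. In DR none of 47 was called by the edgeR test (0.513% of all pairs), with 4 at an unadjusted p under 0.05. Over both rearings 1 of 56 was called (0.4% of all), with 10 at an edgeR unadjusted p under 0.05. For the difference between rearings none of 56 was called (0.181%), with 8 at an edgeR unadjusted p under 0.05. By DESeq2 the counts were likewise 0 in DR and 0 for the difference. In astrocytes alone, 7.11% of all genes were called in NR, 0.736% in DR, 4.79% over both rearings and 0.386% for the difference. A member was tested where its counts passed edgeR's filter, which in NR was 16 of 17 cell types for Gja1, 8 for Gjb6, 3 for Gjb2, 11 for Gjc3, 4 for Gjd2 and 14 for Panx1.

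VLMC, the other home of Gjb6, could be compared by genotype in NR only. Their Gjb6 stood at 138 and 157 CPM in GR-Con and 138 and 124 CPM in GR-KO, a log2 fold change of -0.13 ± 0.32 (SE, edgeR adjusted p of 1.00) with a 95% interval from -0.75 to 0.49. Whether this differs from the fall in astrocytes was not tested. Gjb2 in the same VLMC stood at 25.5 and 41.9 CPM in GR-Con and 11.1 and 12.5 CPM in GR-KO, from 12, 8, 4 and 9 UMIs. Its groups did not overlap, the log2 fold change was -1.32 ± 0.59 (SE), and it did not pass the edgeR test (unadjusted p = 0.0242, adjusted p of 1.00). In the dark the DR GR-Con male library had 35.6 CPM and the DR GR-KO libraries 13.5 and 6.67 CPM, a description with 1 library on one side. All VLMC libraries together held 56 Gjb2 UMIs, so these dark values rest on few.

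**Figure D4:**
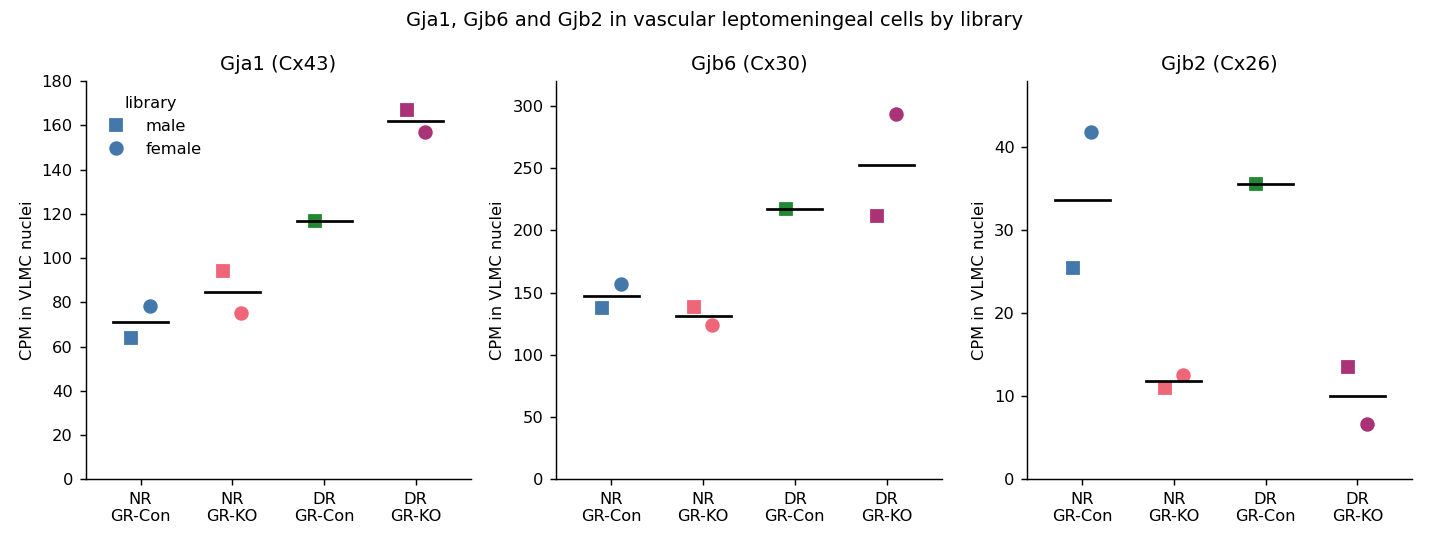
CPM of Gja1, Gjb6 and Gjb2 in VLMC for the 7 libraries with at least 10 VLMC nuclei. Squares are male and circles female libraries, and bars are group means, with 1 library in DR GR-Con. Gjb2 lies between 25.5 and 41.9 CPM in GR-Con and between 6.67 and 13.5 CPM in GR-KO, from at most 18 UMIs per library, and Gjb6 overlaps between the NR groups.

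The other members did not pass with genotype in the types where they were highest. Gjc3 in oligodendrocytes changed by -0.08 ± 0.11 over both rearings (SE, log2 scale, 95% interval from -0.30 to 0.14) and in OPC by -0.25 ± 0.10 (edgeR unadjusted p = 0.0106, adjusted p = 0.567). Gjd2 in Pvalb interneurons changed by -0.13 ± 0.17 (SE, 95% interval from -0.46 to 0.20). Panx1 in OPC changed by 0.28 ± 0.21 over both rearings (SE, 95% interval from -0.14 to 0.70). Panx1 in oligodendrocytes, a type below OPC in level, stood at 6.06 and 7.07 CPM in NR GR-Con and 10.3 and 10.9 CPM in NR GR-KO, and at 9.83, 10.5, 10.5 and 13.3 CPM in the 4 dark libraries. Its groups did not overlap in NR, where the log2 fold change was 0.66 ± 0.23 (SE, edgeR unadjusted p = 0.00402, adjusted p = 0.169). The 8 neuronal markers took 0.0924% and 0.116% of UMIs in NR GR-KO oligodendrocytes against 0.0553% and 0.0471% in NR GR-Con, and their part in this was not tested.

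Among 16 scaffolds and partners of gap junctions, 15 were tested in astrocytes, and 2 fell with GR loss in NR, beside 7.11% of all astrocyte genes called. Hepacam, an adhesion protein that holds Cx43 at astrocyte contacts, had 464 and 418 CPM in NR GR-Con and 327 and 299.9 CPM in NR GR-KO, a log2 fold change of -0.55 ± 0.15 (SE, edgeR adjusted p = 0.00711). Prkca, a protein kinase C that phosphorylates Cx43, had 226 and 297 CPM in NR GR-Con and 165 and 175 CPM in NR GR-KO, at -0.69 ± 0.18 (SE, edgeR adjusted p = 0.00305), and fell over both rearings too. The Hepacam call was lost in 3 of 11 alternatives (edgeR adjusted p up to 0.194, without the NR GR-KO female library, and 0.116 and 0.0522 without the NR GR-Con male and female libraries). That of Prkca was lost in 2 of 11 in NR (0.196 without the NR GR-Con female library, 0.0933 with all 8 libraries in 1 fit) and in 6 of 14 over both rearings (edgeR adjusted p up to 0.167). The list's median log2 change in NR astrocytes was -0.05 beside 0.00 over all genes, and in DR none of the 15 was called (0 at an unadjusted p under 0.05). Over all cell types 3 of 241 pairs of this list were called in NR, beside 0.804% of all pairs, the third being Dbn1, higher in oligodendrocytes. Of the 14 other connexins and pannexins in the table, 6 were tested anywhere in NR and none of their 41 pairs was called by edgeR, with 2 at an unadjusted p under 0.05.

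No member passed the test for rearing in the type where it was highest, where it was tested there. In astrocytes Gjb6 changed by -0.25 ± 0.22 in GR-Con and 0.28 ± 0.15 in GR-KO (SE, log2 scale), and Gja1 by -0.07 ± 0.21 and 0.09 ± 0.14, none of which passed. In VLMC, comparable by rearing in GR-KO only, Gja1 stood at 94.1 and 75.3 CPM in NR and 167 and 157 CPM in DR, and Gjb6 at 138 and 124 against 212 and 294 CPM. Neither group overlapped, and neither gene passed (log2 fold changes of 0.71 ± 0.31 and 0.72 ± 0.32, SE, edgeR adjusted p = 0.0996 and 0.0990). The 6 astrocyte markers took 0.203% and 0.241% of UMIs in the NR and 0.501% and 0.476% in the DR libraries of these VLMC, with 1 marker at 0 in the NR GR-KO female library. The 8 neuronal markers took 0.824% and 0.924% in the NR and 0.210% and 0.233% in the DR libraries, and the 5 markers of VLMC themselves 0.0675% and 0.0769% against 0.179% and 0.135%. The part of these shifts in the Gja1 and Gjb6 values was not tested. Over all types none of 50 pairs of member and type was called in GR-Con (2.25% of all pairs), with 6 at an unadjusted p under 0.05, 3 of 50 were called in GR-KO (3.66% of all), and 3 of 56 over both genotypes (5.24% of all). By DESeq2 the GR-Con count was 0 as well, but the counts in GR-KO and over both genotypes fell to 0 and 1. In astrocytes no member was called by edgeR for rearing, and of all genes 0.147% in GR-Con, 2.85% in GR-KO and 0.935% over both. The shares of members called in GR-KO and over both genotypes are near those of all genes.

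Of those calls, Panx1 in L6CT neurons was the one whose share of nuclei with a UMI, 10.99%, lay well above the lowest type, astrocytes at 0.706%. It rose in the dark by 0.42 ± 0.12 on the log2 scale (SE, edgeR adjusted p = 0.0056 over both genotypes). The 4 NR libraries had 5.35 to 6.09 CPM and the 4 DR libraries 6.95 to 8.28 CPM, with no overlap. Without the NR GR-Con male library no member was called over both genotypes, Panx1 in L6CT included (edgeR adjusted p = 0.0742). Panx1 was higher in the dark in 13 of the 15 types tested over both genotypes, with 5 types at an edgeR unadjusted p under 0.05. Its median log2 change was 0.18, beside 0.00 for all genes. The types come from the same 8 libraries and are not replicates, and such counts of direction were not made for all genes. Gja1 was lower in 13 of 14 types in the same comparison (median -0.38), mostly at levels not read as expression above. In GR-Con alone it was higher in 13 of 14 types (median 0.32) and in GR-KO alone in 8 of 15 (median 0.06).

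The remaining calls fell in neurons, in which these glial connexins stood at the low levels given above. Gjb6 in L2/3 neurons had 0.764 and 0.704 CPM in NR GR-KO and 0.247 and 0.257 CPM in DR GR-KO (log2 fold change -1.49 ± 0.36, SE, edgeR adjusted p = 0.00137). Gja1 in Pvalb interneurons had 4.26 and 3.97 CPM in NR GR-KO against 1.40 and 1.39 CPM in DR GR-KO (-1.53 ± 0.35, SE, edgeR adjusted p = 0.00286), and was called over both genotypes too (-0.93 ± 0.28, SE, edgeR adjusted p = 0.029). Gjc3 in L4 neurons had 1.40 and 1.26 CPM against 0.620 and 0.636 CPM (-1.01 ± 0.30, SE, edgeR adjusted p = 0.0197), and Gjb2 in L2/3 neurons rested on 42 UMIs in NR and 7 in DR over both genotypes. Over all neurons together, Gja1 stood at 3.56 and 2.36 CPM in NR GR-KO and at 2.17 and 1.82 CPM in DR GR-KO, Gjc3 at 1.29 and 1.09 against 0.883 and 0.867 CPM, and Gjb6 at 0.864 and 0.633 against 0.487 and 0.390 CPM. For none of the 3 did these GR-KO libraries overlap, while the 4 GR-Con libraries ran from 1.61 to 2.67, 0.770 to 1.35 and 0.496 to 1.11 CPM. The 3 genes were taken for their calls in neurons of these same GR-KO libraries. With 2 libraries on each side, such a lack of overlap was not counted over all genes, so it adds no support to the calls. In L2/3 neurons the 6 astrocyte markers took 0.00377% and 0.00324% of UMIs in NR GR-KO and 0.00445% and 0.00276% in DR GR-KO, and in Pvalb interneurons 0.00270% to 0.00275% and 0.00230% to 0.00350%. The 5 oligodendrocyte markers took 0.00744% to 0.0105% in L4 neurons of NR GR-KO and 0.0101% to 0.0104% in those of DR GR-KO. Their part in these calls was not tested.

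**Figure D5:**
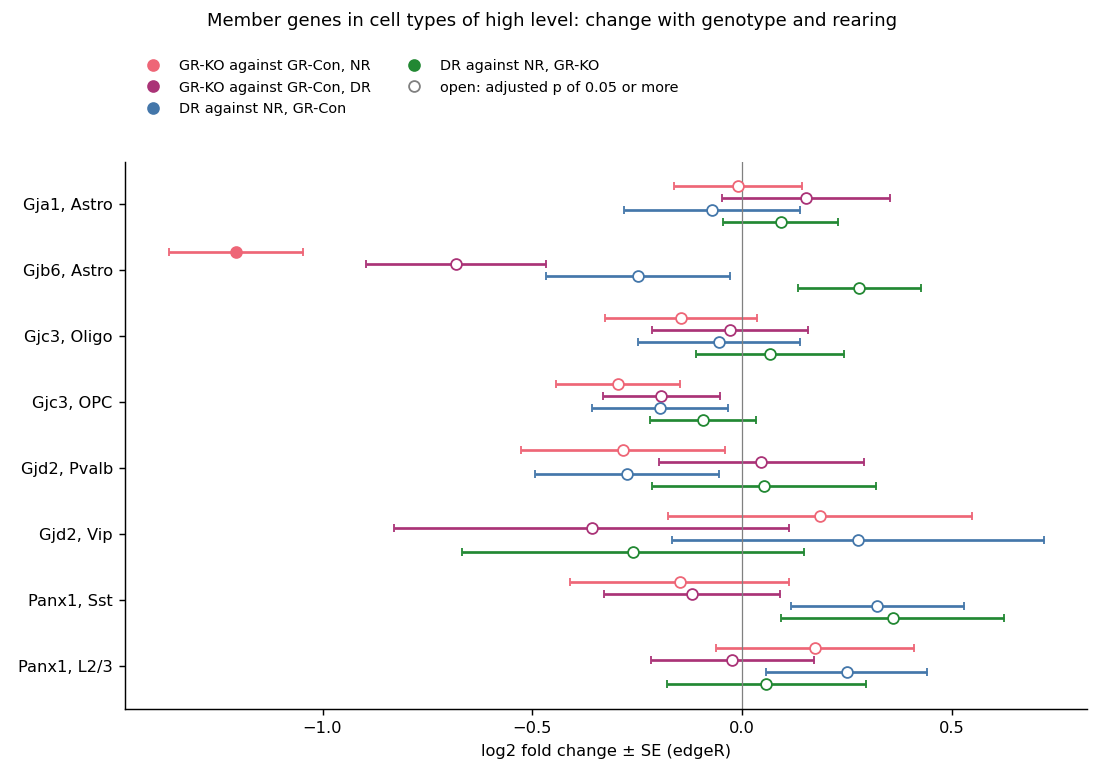
Log2 fold change ± SE (edgeR) of members in cell types where they are high, for GR-KO against GR-Con under each rearing and for DR against NR in each genotype. Filled points passed the test at an adjusted p under 0.05. Gjb6 in astrocytes in NR, at -1.21, is the filled one.

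Darkness raised 2 relatives of these genes in neurons. Gjc1, which encodes Cx45 and was highest in the mural cells of vessels (SMC-Peri) at 255 ± 136 CPM (SD, n = 6) and in endothelial cells at 152 ± 23.7 CPM (SD, n = 7), also had 2.85 to 4.29 CPM in L2/3 neurons of the 4 NR libraries and 6.12 to 6.76 CPM in the 4 DR libraries. Outside vessels and excitatory neurons it stood lower in some types of similar depth, at 0.408 ± 0.449 CPM in Vip and 0.326 ± 0.465 CPM in Lamp5 interneurons (SD, n = 8 each), and a share of nuclei with a Gjc1 UMI was not computed. Its log2 change in L2/3 was 0.91 ± 0.14 (SE, edgeR adjusted p = 8.42e-09), and it was called both in GR-Con (0.95 ± 0.20) and in GR-KO (0.88 ± 0.23). The call over both genotypes was kept in 14 of 14 alternatives. It was lost in 1 of 11 in GR-Con (edgeR adjusted p = 0.127 without the NR GR-Con female library) and in 3 of 11 in GR-KO (0.269 and 0.131 without the DR GR-KO male and female libraries, 0.0622 by the quasi-likelihood test). It rose also in L6CT neurons by 1.13 ± 0.26, in L6IT by 0.65 ± 0.17 and in L4 by 0.50 ± 0.14 (SE, over both genotypes), without overlap between NR and DR libraries in L2/3, L4 and L6IT. These calls were lost in 0 (L6CT), 1 (L6IT) and 3 (L4) of 14 alternatives. Panx2 rose in L2/3 neurons by 0.72 ± 0.16, in Vip interneurons by 0.52 ± 0.14 and in L6CT neurons by 0.40 ± 0.13 (SE, over both genotypes); the calls were lost in 0, 9 and 6 of 14 alternatives. In L2/3 it had 7.86 to 9.16 CPM in NR and 10.8 to 18.6 CPM in DR. Astrocytes went the same way without passing: over both genotypes Gjc1 changed by 0.68 ± 0.27 and Panx2 by 0.66 ± 0.30 (SE, edgeR unadjusted p = 0.0136 and 0.0285, adjusted p = 0.307 and 0.405). In GR-Con astrocytes Gjc1 changed by 1.15 ± 0.40 (SE, edgeR adjusted p = 0.38). Of the 40 pairs of this list tested over both genotypes 7 were called, beside 5.24% of all pairs. All 7 were higher in the dark and all were Gjc1 or Panx2. The list's median log2 change was 0.20 beside 0.00 for all genes. The 5.24% pools all 15 types. The share of all genes called within L2/3, L4, L6CT, L6IT or Vip alone is not set beside these calls. Of the 214 pairs of scaffolds and partners 8 were called, 5 higher and 3 lower, beside the same 5.24%.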

How the data were processed

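Nuclei of V1 were sorted as DRAQ5-positive and, per the methods, GFP-negative, and sequenced by the 10x 3′ v4 kit. The authors counted UMIs with Cell Ranger 8.0.1 on mm10 with the vector sequences added. In Seurat 5.3.0 they removed nuclei of too few or too many counts and predicted doublets, and named the cell types. The deposited values are raw UMI counts per gene and nucleus, with total counts and the percent of mitochondrial UMIs per nucleus that the authors computed. The members and gene lists were chosen with earlier results of these data known.

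From these counts, UMIs were summed per library and cell type. Types with at least 10 nuclei in each library of a comparison were tested with edgeR 4.0.16 in R 4.3.3 (filterByExpr, TMM) by the likelihood-ratio test that the study names, with Benjamini-Hochberg adjustment over all genes of a cell type and a threshold of 0.05. The SE is the log2 fold change over the root of the likelihood ratio. Each group held 2 libraries, 1 male and 1 female, so the spread within a group includes any difference by sex. The edgeR p-values use a dispersion estimate that also draws on other genes, not the spread of 1 gene alone. The scripts were tested on simulated data. Levels are CPM, and log2 levels in the order of types carry a pseudocount of 1. Alternatives were the quasi-likelihood test, DESeq2 1.42.0, other size factors, no filter, a sex term, equal nuclei, all libraries in 1 fit, and each library left out. The genes named are the members, 2 lists of relatives and partners, and the 3 genes most like each member among those reaching 10 CPM in a cell type. Promoters are from RefSeq. Some genes are not reported here.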

Additional observations from a re-analysis of the deposited data

How the results depend on the processing

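Each count of members called was recomputed under 7 or fewer other settings and with each library left out. For genotype in NR (1 called), equal numbers of nuclei gave 2 and a sex term 4. For genotype in DR (0 called), all 8 libraries in 1 fit gave 1 and a sex term 1. For rearing in GR-KO (3 called), DESeq2 gave 0 and the quasi-likelihood test 0, and for rearing over both genotypes (3 called) DESeq2 gave 1. With 1 library left out, where a lone sample is assumed to vary like the other groups, the counts ran from 1 to 2 for genotype in NR, 0 to 4 in DR (4 without the DR GR-Con male library), 1 to 2 over both rearings and 0 to 0 for the difference. For rearing they ran from 0 to 2 in GR-Con, 0 to 7 in GR-KO (0 without either DR GR-KO library, 7 without the NR GR-KO female library) and 0 to 5 over both genotypes (0 when the NR GR-Con male library was left out, 5 when the DR GR-Con female library was). The order of cell types gave 8 to 8 pairs, and 6 when the mean was taken over nuclei.

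Gjb6 in astrocytes kept its call in NR in 11 of 11 alternatives, from -1.33 to -1.08 on the log2 scale, and over both rearings in 14 of 14. The change of Gja1 in astrocytes, near 0, ran from -0.17 to 0.12 in NR and from -0.0036 to 0.14 over both rearings with 1 library left out, and turned its sign when the NR GR-Con male (to 0.0027), the NR GR-KO female (to 0.12) or, over both rearings, the DR GR-Con female library (to -0.0036) was dropped. The rearing calls of members in neurons were lost in 4 of 11 alternatives for Gjb6 in L2/3, 5 of 11 for Gjc3 in L4, 5 of 11 (GR-KO) and 9 of 14 (over both genotypes) for Gja1 in Pvalb, 2 of 13 for Gjb2 in L2/3 and 1 of 14 for Panx1 in L6CT. The cause of these changes was not tested. The number of genes called in astrocytes moved too: in NR from 1030 to 2041 with a sex term, 746 by the quasi-likelihood test, 678 by DESeq2 and 555 with all 8 libraries in 1 fit, and in DR from 104 to 0 by the quasi-likelihood test, 66 by DESeq2, 198 with all 8 libraries and 224 with a sex term. No paired analysis was possible because the library names carry no replicate number. They carry the sex, and the fits with a sex term block on it. Depth limited Gjb2 and Gjd2, with 342 and 1224 UMIs in all, and VLMC, with 360 nuclei.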
